A study of Mus musculus with 6 samples.

Results

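Complement components and receptors were followed in cells sorted from the corpus of the mouse stomach for the macrophage surface marker F4/80: C1qa, C1qb, C1qc, C3, C4b, Cfp, Cfb, C3ar1 and C5ar1. They were the rows of the deposited table whose gene symbol equals one of these 9 names. Each symbol had 1 row, so all 9 genes were found among 23049 in the table, and all 9 were above the lowest listed value in each of the 6 libraries. The animals were treated with DMP-777, given to induce the metaplasia known as SPEM (spasmolytic polypeptide-expressing metaplasia), or with L635, given to induce SPEM with intestinal features. Both compounds cause loss of the acid-secreting parietal cells, and L635, a close chemical relative of DMP-777, lacks the latter's inhibition of neutrophil elastase. Each treatment had 3 libraries of RNA from the sorted cells. Strain, age, genotype, dose and treatment time are not given in the labels, no untreated animals were analysed here, and the labels do not say how many animals stand behind a library. The p-values therefore measure only the spread among these libraries, some of which may be technical.

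Complement is a cascade of plasma and tissue proteins that marks particles for uptake and recruits leukocytes. C1q, built from an A, a B and a C chain, recognises antibody complexes and dying cells and starts the classical pathway. C4 and C3 are then cleaved in turn, while factor B and properdin drive the alternative pathway that amplifies C3 cleavage. The fragments C3a and C5a act on leukocytes through the receptors C3aR and C5aR1. Tissue macrophages are a main source of C1q, and the liver is the main source of circulating C3 and C4.

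The 9 genes spanned a wide range of expression. Values are treated as RPKM, in which read numbers are divided by gene length and sequencing depth. The unit is not stated and the evidence for it is weak, so comparisons of level between genes hold only if it is right. Triplets list replicates 1, 2 and 3. The lowest listed value, 1, is a floor. C1qb was the most abundant, with a mean of 257 RPKM over the 6 libraries, which placed it at the 99.5th percentile of 12102 genes tested. C1qa, C1qc, C3ar1 and C5ar1 followed, with means of 119, 119, 112 and 99.1 RPKM. The values of these neighbours overlapped across libraries, and differences between them within a library were not tested. Cfp had a mean of 66.3 RPKM and C3 one of 43.8. Cfb, at 11.3 RPKM, and C4b, at 7.07 RPKM, were the lowest, and C4b lay at the 48.6th percentile.

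**Figure D1:**
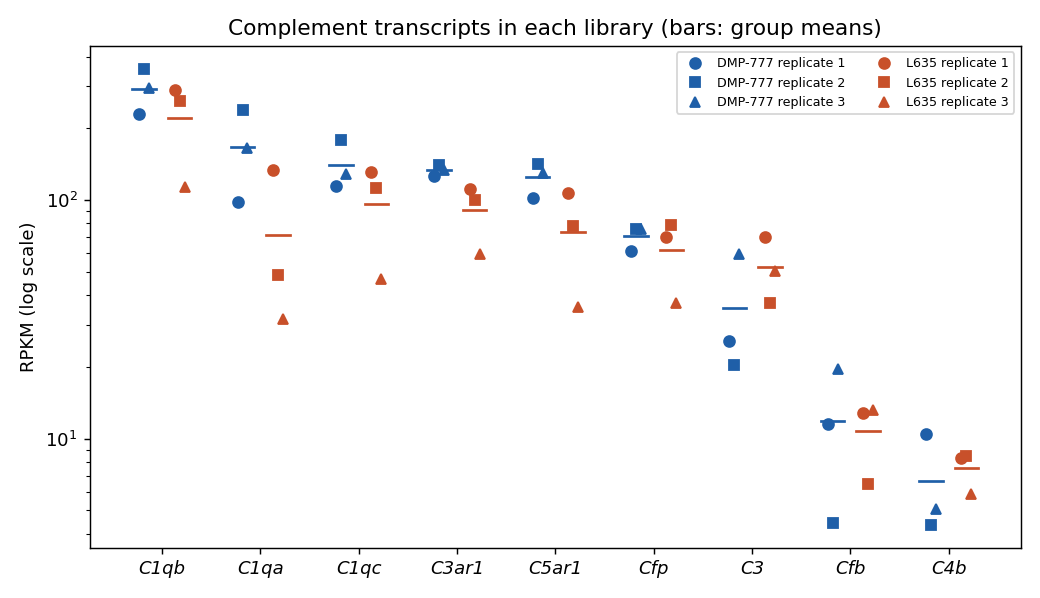
RPKM on a log axis for the 9 complement genes in each of the 6 libraries, ordered by their mean, with group means as bars. C1qb lies highest at a mean of 257 RPKM, C4b lowest at 7.07, and the L635 replicate 3 triangle is the lowest point of C1qa, C1qb, C1qc, C3ar1, C5ar1 and Cfp.

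Sequence upstream of the gene start is shown for C1qb and C1qc, whose levels moved most closely together, and for C3, whose lowest library was another one. The sequences are from RefSeq (GRCm38.p6) and run 5′ to 3′ on the minus strand, which carries these genes. They end at the RefSeq start or, for C1qc, at the outer end of the gene in the deposited table. Capitals mark GAGGAA or its complement, a core bound by the myeloid factor PU.1, in both C1q genes, and TTNNGNAA, a loose form of the C/EBP site, in C3.
C1qb (chr4:136886201-136886450): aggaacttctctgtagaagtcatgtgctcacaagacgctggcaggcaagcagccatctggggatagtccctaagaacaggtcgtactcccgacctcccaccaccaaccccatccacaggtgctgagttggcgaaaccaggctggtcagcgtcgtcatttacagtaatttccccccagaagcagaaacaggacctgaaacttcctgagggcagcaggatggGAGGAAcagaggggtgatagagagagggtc
C1qc (chr4:136893066-136893164): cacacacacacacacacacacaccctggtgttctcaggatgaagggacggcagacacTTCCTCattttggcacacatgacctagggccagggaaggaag
C3 (chr17:57228137-57228386): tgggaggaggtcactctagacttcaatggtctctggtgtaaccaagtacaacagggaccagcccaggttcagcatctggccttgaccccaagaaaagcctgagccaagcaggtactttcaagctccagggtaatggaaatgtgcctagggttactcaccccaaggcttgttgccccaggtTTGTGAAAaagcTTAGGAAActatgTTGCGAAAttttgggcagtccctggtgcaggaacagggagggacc

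Windows of 250 bases before the RefSeq start were at hand for 6 of the 9 genes, C1qb, C1qc, C3, Cfp, C3ar1 and C5ar1, and were searched on both strands. GAGGAA was found in C1qb, from 30 to 25 bases before the start, and in C1qc, from 193 to 188 bases before it. Of 32851 such windows in the table, 23.3% hold it. TTNNGNAA matched at 3 places in C3 and at 1 place each in C1qc and C5ar1, and 36.8% of all windows hold it. The NF-kB form, GGG and CC with 5 free bases between them, held by 45.8% of windows, was found in 5 of the 6, all except C5ar1, with some matches overlapping each other. The AP-1 form TGANTCA, held by 6.75%, was found in C3ar1 alone. The IRF form, GAAA and GAAA with 2 free bases between them, the STAT form TTCNNNGAA and the MAF form TGCTGAC, held by 2.98%, 7.02% and 3.81% of windows, were found in 0 of the 6. For C1qc and C5ar1 only the outer 99 and 48 bases of the window lie outside the gene as deposited. The TTNNGNAA matches of these genes and the NF-kB matches of C1qc lie in the part inside it. A match describes these letters and shows no bound factor, and a missing match says only that the letters are not in the window.

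Mean levels of the 3 C1q chains, of properdin and of both receptors were lower with L635, and that of C3 was higher, but no gene passed the test. With limma on log2(RPKM + 1), 0 of the 9 genes and 0 of all 12102 genes (0%) passed a Benjamini-Hochberg adjusted p of 0.05, with a smallest adjusted p of 0.419 among the 9 and 0.308 among all. At an unadjusted limma p below 0.05 there were 1223 genes, 10.1% of those tested. They included 2 of the 9, C1qa and C5ar1, both lower in L635. That level was reached with L635 lower by 6.33% of tested genes, and with L635 higher by 3.78% and by 0 of the 9. The log2 fold change was negative for 6 of the 9, against 49.8% of tested genes, and its median was -0.49, against 0.00 over all genes. This median was -0.02 after quantile normalization, with 5 genes lower and 4 higher, -0.12 with a length and GC trend removed and -0.14 without L635 replicate 3. It was -0.05 with an epithelial covariate, which was itself lower on average in L635. The 95% interval reached a median of 0.86 to either side for these genes.

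The C1q genes lie side by side on the minus strand of chromosome 4, within 18675 bases (GRCm38): C1qa from 136895917 to 136898803, C1qc from 136889804 to 136893065 and C1qb from 136880129 to 136886187. C1qa, the A chain, measured 98.3, 238 and 166 RPKM with DMP-777, and 134, 48.4 and 31.8 RPKM with L635. L635 replicates 2 and 3 were below every DMP-777 library, while L635 replicate 1 lay between DMP-777 replicates 1 and 3. The means were 167 ± 69.8 and 71.4 ± 54.8 RPKM (SD, n = 3 each), a log2 fold change of -1.39 ± 0.48 (SE) with a 95% interval from -2.44 to -0.35 (limma unadjusted p = 0.0131, adjusted p = 0.419).

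C1qb, the B chain, measured 229.7, 356 and 295 RPKM with DMP-777, and 290.3, 259 and 114 RPKM with L635. C1qc, the C chain, measured 115, 178 and 129 RPKM with DMP-777, and 131, 112 and 46.8 RPKM with L635. For both chains L635 replicate 3 was far below the other 5 libraries, at 39.3% of their median for C1qb and 36.4% for C1qc, and the other L635 libraries were in or close to the DMP-777 range. The log2 fold change was -0.49 ± 0.41 for C1qb and -0.64 ± 0.39 for C1qc (limma adjusted p = 0.696 and 0.596). Without L635 replicate 3 these became -0.07 and -0.18, and that of C1qa became -0.95.

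Since a ratio of chains within a library does not depend on how the library was scaled, the chains were also set against each other. C1qb to C1qc was nearly constant, at 2.00, 2.00 and 2.29 in DMP-777 and 2.21, 2.31 and 2.44 in L635. C1qa to C1qb was 0.428, 0.669 and 0.563 in DMP-777 and 0.461, 0.187 and 0.279 in L635, so that the A chain was low for its partners in L635 replicates 2 and 3. The difference in mean log2 ratio, L635 minus DMP-777, was -0.92 for C1qa to C1qb, -0.77 for C1qa to C1qc and 0.15 for C1qb to C1qc. In each of these 3 ratios the groups overlapped, and the exact two-sided permutation p was 0.2, also after adjustment over the 3, where the smallest possible p is 0.1.

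**Figure D2:**
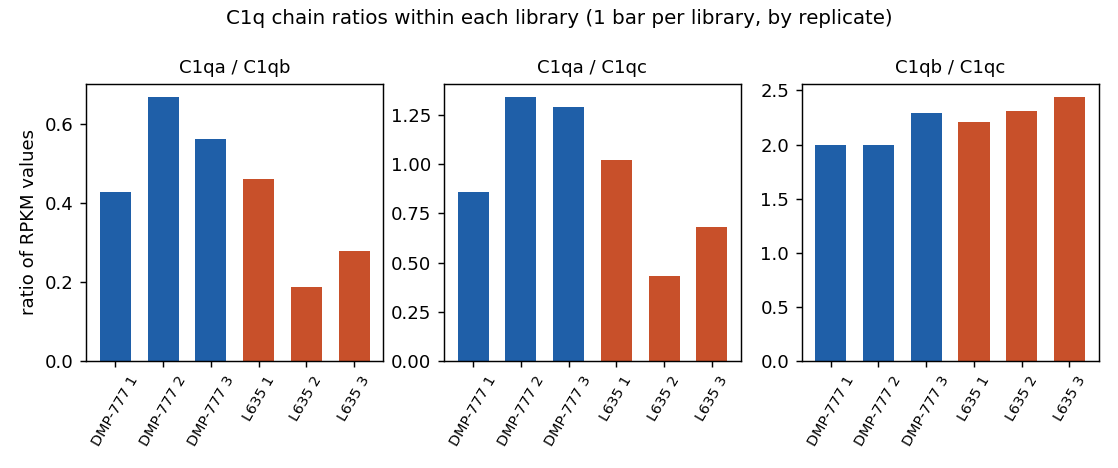
Ratio of RPKM values between C1q chains, 1 bar per library, with DMP-777 in blue and L635 in orange. C1qb to C1qc stays between 2.00 and 2.44, while C1qa to C1qb runs from 0.187 in L635 replicate 2 to 0.669 in DMP-777 replicate 2.

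C1qa and C1qb were also set against macrophage genes, a comparison chosen after the values were seen and given without a test. The ratio of C1qa to Emr1, the gene of F4/80, was 2.13, 2.69 and 1.76 in DMP-777 and 1.37, 0.381 and 0.77 in L635. The ratio of C1qa to Csf1r, the receptor of macrophage colony-stimulating factor, was 1.28, 1.47 and 0.977 in DMP-777 and 0.812, 0.482 and 0.398 in L635. In both ratios the L635 libraries lay below those of DMP-777. C1qb to Emr1 was 4.99, 4.02 and 3.13 in DMP-777 and 2.97, 2.04 and 2.76 in L635, again with all L635 libraries lower. C1qb to Csf1r was 2.99, 2.20 and 1.73 in DMP-777 and 1.76, 2.58 and 1.43 in L635, with the groups overlapping. Emr1 and Csf1r are part of 12 macrophage markers, of which 4 were higher and 8 lower in L635. Cd68, another of them, had a log2 fold change of -0.62, against 0.14 for Emr1 and -0.22 for Csf1r. That of C1qb was -0.49, so C1qb was not lower in L635 relative to Cd68. For C1qa against Cd68 the groups overlapped. L635 replicate 1 had 134 RPKM of C1qa against 243 of Cd68, and DMP-777 replicate 1 had 98.3 against 227. The separation is thus shown only for the named ratios and does not hold for every macrophage marker. Ratios to the remaining markers were not worked out, nor was the share of all genes whose ratio separates the groups. When each library was centred on the mean level of 12 macrophage markers, which shifts the median of all genes by 0.14, the log2 fold change of C1qa was -1.25 (limma adjusted p = 0.97).

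The receptor genes were next in level. C3ar1, which encodes the receptor of C3a (chromosome 6, 122847138 to 122856161), measured 127, 140.3 and 133 RPKM with DMP-777, and 112, 101 and 59.4 RPKM with L635. It was the only gene of the 9 whose groups did not overlap, which 16% of tested genes did in either direction and 8.75% with L635 lower. The means were 133 ± 6.90 and 90.7 ± 27.6 RPKM (SD, n = 3 each), a log2 fold change of -0.60 ± 0.32 with a 95% interval from -1.29 to 0.09 (limma unadjusted p = 0.0823, adjusted p = 0.54). The DMP-777 libraries were close together, with an SD of 5.17% of their mean.

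C5ar1, the receptor of C5a (chromosome 7, 16246743 to 16259540), measured 102, 142 and 129.9 RPKM with DMP-777, and 107, 78.1 and 35.5 RPKM with L635. L635 replicate 1 lay just above the lowest DMP-777 library and the other L635 libraries lay below all of them. The log2 fold change was -0.88 ± 0.39, 95% interval -1.71 to -0.04 (limma unadjusted p = 0.041, adjusted p = 0.476). It was -0.43 without L635 replicate 3. C3ar1 and C5ar1 were close to equal in level, with a ratio of 0.989 to 1.29 in 5 libraries and 1.67 in L635 replicate 3.

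Neutrophils and mast cells can also carry these receptors. Of 9 neutrophil markers, Ly6g was at the floor in every library, and the summed level was 154 to 343 RPKM in DMP-777 and 158 to 527 in L635, led by Retnlg. Retnlg alone measured 85.1, 279 and 257 RPKM in DMP-777 and 81.9, 471 and 79.5 in L635, so the range of these sums mainly follows 1 gene. The summed level of 7 mast cell markers, led by the protease Mcpt2, was 240, 398 and 206 RPKM in DMP-777 and 1018, 79 and 9 in L635. The part of these cells in the receptor values was not tested.

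Among the genes of the alternative pathway and of C3, none separated the treatments. C3, the central component of all complement pathways (chromosome 17, 57203970 to 57228136), measured 25.8, 20.4 and 59.4 RPKM with DMP-777, and 69.8, 37.0 and 50.6 RPKM with L635. DMP-777 replicates 1 and 2 were below all L635 libraries, while DMP-777 replicate 3 lay among them. The log2 fold change of C3 was 0.67 ± 0.40, 95% interval -0.19 to 1.53 (limma adjusted p = 0.585). Leaving out DMP-777 replicate 3 gave 1.11 and leaving out DMP-777 replicate 2 gave 0.36.

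Cfp encodes properdin, which stabilises the C3 convertase of the alternative pathway (chromosome X, 20925454 to 20931555). It measured 61.5, 75.4 and 75.5 RPKM with DMP-777, and 70.4, 78.3 and 36.9 RPKM with L635. Apart from L635 replicate 3 all libraries lay in a narrow range, and the log2 fold change of -0.26 ± 0.33 (limma adjusted p = 0.814) became 0.07 without that library. Cfb, the protease subunit of the same convertase (chromosome 17, 34856374 to 34862518), measured 11.5, 4.43 and 19.6 RPKM with DMP-777, and 12.8, 6.46 and 13.2 RPKM with L635. The L635 values lay within the DMP-777 range and the log2 fold change was 0.02 ± 0.50 (limma adjusted p = 0.992). The locus of Cfb overlaps the predicted gene Gm20547 and C2, so that reads may be divided between them.

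C4b, which supplies the C4 cleaved by the C1 complex (chromosome 17, 34728380 to 34743882), measured 10.4, 4.35 and 5.06 RPKM with DMP-777, and 8.27, 8.44 and 5.85 RPKM with L635. The L635 values again lay within the DMP-777 range. The log2 fold change was 0.23 ± 0.45, 95% interval -0.74 to 1.20 (limma adjusted p = 0.882). Reads of its close paralog C4a, not analysed here, may be counted in it.

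**Figure D3:**
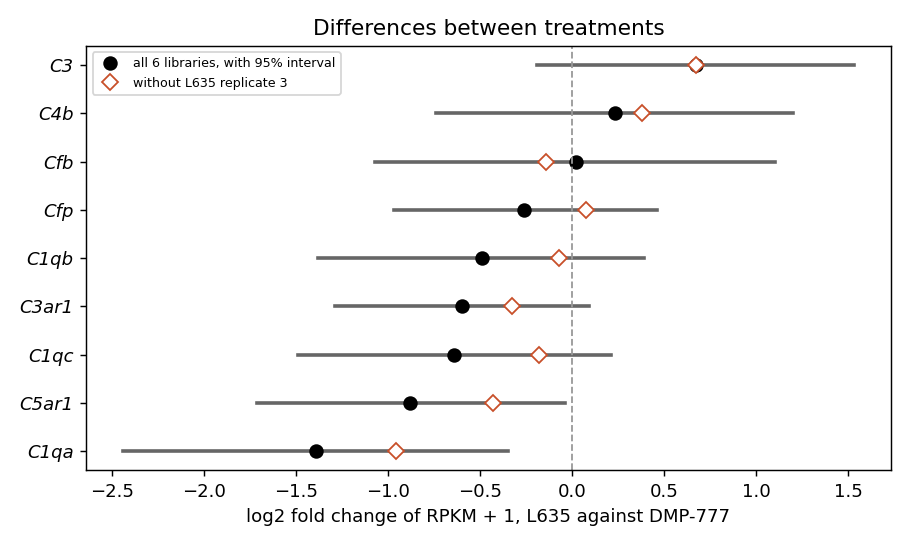
Log2 fold change of RPKM + 1, L635 against DMP-777, with its 95% interval from limma for each gene, and the value without L635 replicate 3 as open diamonds. The intervals of C1qa and C5ar1 end below 0, at -0.35 and -0.04, and without that library C1qb, C1qc and Cfp lie at -0.07, -0.18 and 0.07.

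The 9 genes differed in which library was lowest. L635 replicate 3 was the lowest library for 6 of them, C1qa, C1qb, C1qc, Cfp, C3ar1 and C5ar1, against 13.2% of all tested genes. DMP-777 replicate 2 was the lowest for the other 3, C3, C4b and Cfb, against 22.3% of tested genes, and the highest for C1qa, C1qb, C1qc, C3ar1 and C5ar1, against 22% of tested genes. Of the 12102 tested genes, 9559 were above the floor in all 6 libraries. Where several libraries of a gene were at the floor, the first in order was counted as lowest. L635 replicate 3 came last, so 13.2% understates its share, and the 22.3% also depends on this order. The likeness of 2 genes was measured as the root mean square difference of their log2 levels over the 6 libraries, each centred on its own mean. Among the 36 pairs it was smallest for C1qb with C1qc, at 0.10. It was at most 0.38 among C1qb, C1qc, Cfp, C3ar1 and C5ar1, between 0.45 and 0.79 from C1qa to these genes, and 0.53 to 1.29 between the 6 genes and C3, C4b or Cfb. C3 and Cfb were 0.44 apart. C4b was 0.72 from C3 and 0.70 from Cfb, and nearer to Cfp at 0.53, C3ar1 at 0.58 and C1qb at 0.69, so it shared its lowest library with C3 and Cfb but not their profile.

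**Figure D4:**
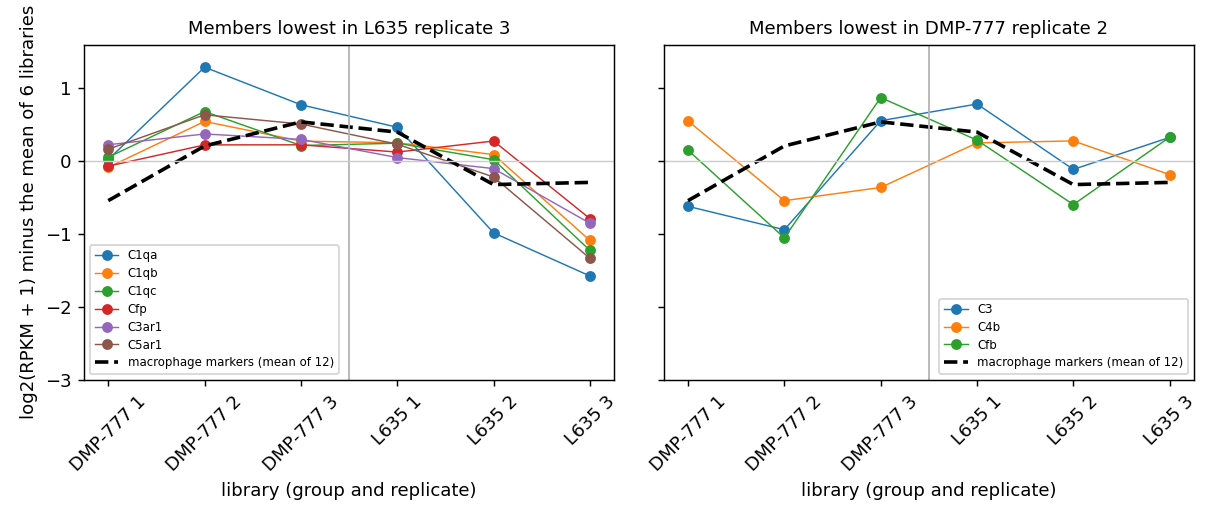
Log2(RPKM + 1) of each gene minus its mean over the 6 libraries, with the mean of 12 macrophage markers as a dashed line; thin lines only guide the eye, since replicates have no order. On the left, the 6 genes are all lowest in L635 replicate 3, where the macrophage markers are not as low. On the right, C3, C4b and Cfb are lowest in DMP-777 replicate 2.

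Genes most like the mean of the C1q chains, among 5764 tested genes at or above the median level and without predicted, clone or Rik names, included Arf3, Ankrd46, Cd81 and Timm10, with a root mean square difference of 0.127 to 0.183 over the 6 libraries. Arf3, a small GTPase, measured 93.7, 141 and 114 RPKM with DMP-777, and 94.6, 75.0 and 38.4 RPKM with L635. The tetraspanin Cd81 measured 78.8, 186 and 111 RPKM with DMP-777, and 129, 69.0 and 40.4 RPKM with L635. For C3 they were Adam17, Anks3, Zfp740, Dgkz and Plekha1, at 0.141 to 0.157. Adam17, a sheddase of membrane proteins, measured 12.2, 11.3 and 28.6 RPKM with DMP-777, and 28.6, 16.5 and 22.5 RPKM with L635.

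The sorted samples held macrophage transcripts together with those of other cells, and in bulk samples fewer cells of a type and less RNA per cell cannot be told apart. All 12 macrophage markers were above the floor in each library. Their summed level was 1658 to 2918 RPKM in DMP-777 and 1559 to 2838 in L635, led by Lyz2, and 4 of 12 were higher in L635 (median log2 fold change -0.20). Emr1 had means of 76.3 ± 26.3 RPKM for DMP-777 and 88.7 ± 43.6 for L635 (SD, n = 3 each). Of 8 markers of resident macrophages, led by Pf4, 6 were lower in L635, with a median of -0.54. Their sum was 394 to 442 RPKM in DMP-777 and 260, 508 and 140 in L635 replicates 1, 2 and 3. The library lowest in C1q was thus also lowest in these genes, a relation that was not tested. The low sum is not particular to resident macrophages. L635 replicate 3 was also lowest in the sums of the macrophage, general epithelial and several other marker lists, and of all genes. L635 replicate 3 was not lowest in the sums of the monocyte or neutrophil markers.

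Epithelial cells and fibroblasts can also make C3, C4 and factor B. The 7 general epithelial markers, led by Krt19, summed to 811 to 1233 RPKM in DMP-777 and 652 to 885 in L635, and L635 was lower for all 7 (median log2 fold change -0.45). Their mean log2 level was 7.11, 7.22 and 6.69 in DMP-777 and 6.85, 6.63 and 6.44 in L635. As a covariate it is therefore partly tied to treatment, and the fit cannot fully separate the 2. With the mean level of this list as a covariate, the log2 fold change of C3 was 0.14, that of Cfb -0.73 and that of C1qa -0.70 (limma adjusted p = 1 each). The 8 fibroblast markers, led by Dcn, summed to 45 to 70 RPKM in DMP-777 and 97, 57 and 8 in L635. In L635 replicate 3, where 7 of these markers were at the floor of 1, C3 stood at 50.6 and Cfb at 13.2 RPKM. The part of epithelial cells and fibroblasts in these values was not tested. Over the other 8 cell type lists the median log2 fold change ranged from -1.32 for surface mucous cells to 0.68 for eosinophils.

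The rest of the pathway was described from lists of 51 complement genes found in the table. With the 9 genes, 31 were above the floor in enough libraries to be tested. L635 was higher for 15 and lower for 16, and their median log2 fold change was -0.12. Of the 22 others tested, 0 passed the adjusted threshold and 3 had an unadjusted limma p below 0.05, against 10.1% of all genes. The early proteases were scarce. C1s, the serine protease of the C1 complex, was at 4.62 RPKM in DMP-777 replicate 1 and at most 1.67 elsewhere, and its partner C1ra was at most 3.96 RPKM. Fcna, a ficolin that starts the lectin pathway in the mouse, was the most abundant of the other recognition genes, at 43.2, 14.7 and 26.9 RPKM in DMP-777 and 5.46, 56.7 and 11.8 in L635. The L635 libraries spread on both sides of DMP-777, for a log2 change of -0.67 ± 0.65 (limma adjusted p = 0.742).

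Factor D, encoded by Cfd, was listed at the floor in all 6 libraries, as was Hc, the gene of C5 in the mouse. Of the 7 terminal pathway genes only C8g was tested, at most 2.23 RPKM in any library. Among the soluble regulators, Cpn1, Cfi and C4bp had the smallest p, with log2 fold changes of 0.81, 0.79 and -0.45 (limma adjusted p = 0.633, 0.655 and 0.685 in that order). Cpn1 and C4bp were at the floor in some libraries of both groups. Cfi, the protease that degrades C3b, measured 17.0, 4.51 and 6.61 RPKM with DMP-777, and 23.9, 5.55 and 23.0 RPKM with L635.

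Membrane regulators protect a cell from its own complement. Cr1l, the rodent regulator known as Crry, was the most abundant of them, at 87.0, 71.3 and 72.2 RPKM in DMP-777 and 81.8, 56.7 and 49.6 in L635, for a log2 change of -0.32 ± 0.30 (limma adjusted p = 0.738). Cd59a, which blocks the membrane attack complex, measured 16.3, 14.03 and 3.37 RPKM with DMP-777, and 4.94, 2.95 and 1.98 RPKM with L635, a log2 fold change of -1.34 ± 0.57, with DMP-777 replicate 3 among the L635 values. Cd46, at 1.36, 1.57 and the floor in DMP-777 and 2.29, 6.63 and 2.87 in L635, had 1.00 ± 0.42 (limma adjusted p = 0.455 for both). Cd46 was above DMP-777 in all 3 L635 libraries, a separation in that direction seen in 7.25% of tested genes, but at levels close to the floor.

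Of the other receptors and binding proteins, C1qbp had the smallest p. It encodes a mainly mitochondrial protein that can bind C1q. It measured 42.7, 50.9 and 44.2 RPKM with DMP-777, and 35.1, 21.1 and 20.2 RPKM with L635, with all L635 libraries lower, for a log2 change of -0.87 ± 0.31 (limma unadjusted p = 0.015, adjusted p = 0.422). Itgb2, the shared chain of the complement receptors CR3 and CR4, was at 109 to 151 RPKM in DMP-777 and 75.8 to 133 in L635 (log2 fold change -0.28, limma adjusted p = 0.796). Cd93, a C1q-related receptor of myeloid and endothelial cells, had 0.51 (limma adjusted p = 0.716).

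**Figure D5:**
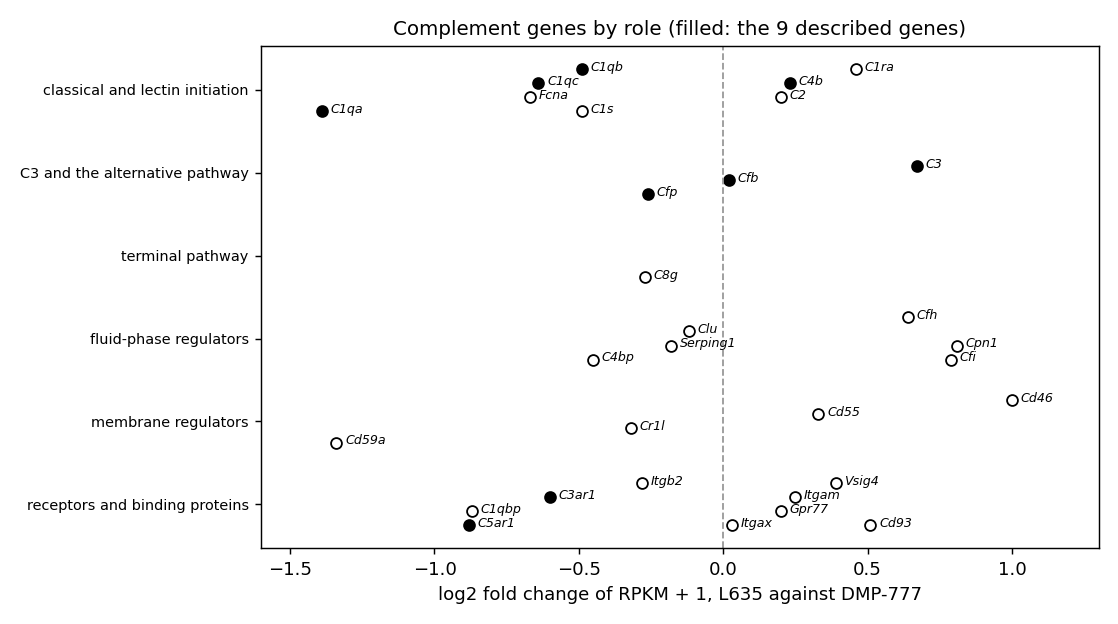
Log2 fold change of RPKM + 1, L635 against DMP-777, for the 31 complement genes tested, 1 point per gene, arranged by role, with the 9 described genes filled. Points lie on both sides of 0 in each role except the terminal pathway, where C8g alone was tested, and C1qa at -1.39 and Cd59a at -1.34 lie farthest to the left.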

How the data were processed

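Total RNA of F4/80-sorted cells was amplified and sequenced as single-end reads, per the labels' protocols. The submitters' processing notes list TopHat 1.4, FastQC, SAMtools and mm9 but give no roles. The authors deposited 1 normalized value per gene and library, treated here as RPKM. The unit is not given in the sources used here and was inferred from steps in value times exonic length. The steps were weak: 24.4 to 30.5% of low values lay within 0.1 of a whole read. Values without any steps would often lie as close, and the depth used was the best fitting of many tried. These shares are therefore little evidence for the unit. Depth per library is therefore treated as unknown and no count test was run. The lowest value is 1, a floor. Of genes with an identifier in GENCODE M21 (GRCm38), 99.8% overlap that gene there, so coordinates are given as GRCm38.

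L635 was compared with DMP-777 in 6 libraries with limma 3.58.1 (R 4.3.3) on log2(RPKM + 1), with a mean-variance trend, two-sided, adjusted over 12102 genes above the floor in at least 3 libraries. Fold changes of low genes are understated. Groups come from sample titles. The members, gene lists and tests were chosen with earlier results of these data known. Named genes were all members, up to 3 other tested genes of each complement role with the smallest p, the 5 most like C1q and C3, Emr1, Csf1r and the leading gene of each marker list. Of these, 1 gene is not reported here. Cfd, Hc, Ly6g, Cd68 and Gm20547 were chosen after their values were seen. The fit was tested on simulated data. It recovered 0% of genes given a log2 change of 1, 57.2% at 2 and 89% at 3. Failure to pass the adjusted threshold is therefore no evidence that changes of about 1 or less are absent. Alternatives covered the pseudocount, filter, scaling, variance model, weights, an epithelial covariate and each library left out. Removal of a length and GC trend was added after seeing the data.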

Additional observations from a re-analysis of the deposited data

How the results depend on the processing

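No paired analysis was possible because the groups share no sample numbers. Across 17 alternatives, C1qa, C1qc, C3ar1 and C5ar1 stayed lower in L635, C3 and C4b stayed higher, and 0 of the 9 genes passed the adjusted threshold in any. The count of genes past the threshold among all genes was 0 in each alternative except centring on the macrophage markers, which gave 1, the predicted gene Gm10800 (limma adjusted p = 0.0358), chosen after its values were seen; the cause was not tested. At an unadjusted p below 0.05, between 168 genes (epithelial covariate) and 1581 (without DMP-777 replicate 3) were found, against 1223. The 2 such calls among the 9 genes became 0 without filter, with the epithelial covariate, and without DMP-777 replicate 2, L635 replicate 2 or L635 replicate 3. The call of C5ar1 alone also ended after quantile normalization, macrophage centring, without the mean-variance trend, with the length and GC trend removed and without DMP-777 replicate 3 (limma unadjusted p from 0.0731 to 0.166). C3, higher in L635, passed that level after quantile normalization (limma unadjusted p = 0.0211) and without DMP-777 replicate 3 (limma unadjusted p = 0.00902), and C3ar1 without L635 replicate 1 (limma unadjusted p = 0.049). Directions turned for genes near 0. C1qb had 0.0012 and Cfp 0.093 after quantile normalization, which raised all 6 genes low in L635 replicate 3, and Cfp had 0.014 with the length and GC trend removed. Cfb had -0.018 with a pseudocount of 5, -0.022 after quantile normalization, -0.071 after median centring and -0.73 with the epithelial covariate; the causes were not tested. With 1 library left out, the log2 fold change ranged from -1.97 to -0.95 for C1qa, from -1.21 to -0.43 for C5ar1, from -0.78 to -0.33 for C3ar1, from -0.46 to 0.074 for Cfp, from -0.50 to 0.46 for Cfb, and from 0.36 to 1.11 for C3. The log2 ratio difference ranged from -1.25 to -0.60 for C1qa to C1qb, from -1.07 to -0.45 for C1qa to C1qc and from 0.11 to 0.21 for C1qb to C1qc. The planned sum of C4a and C4b was not run, since C4a was not analysed here. The 3 libraries a group and the unknown depth limit what differences could be seen.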
